A study of Mus musculus with 8 samples.

Results

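Long intergenic noncoding RNAs (lincRNAs) that were expressed in the liver were compared between METTL3-HKD and METTL3-Flox mice. Members were selected on 2 values of the deposited gene table, which were a biotype of lincRNA and a mean of at least 0.5 FPKM (fragments per kilobase of transcript, scaled to library size) over the 8 livers. The rule kept 199 of the 5559 lincRNA rows, and the table lists 54532 genes in all. All livers had undergone 1 h of partial warm ischemia followed by 6 h of reperfusion, so that no liver without ischemia entered the comparison. METTL3-HKD mice (n = 4) carried a floxed Mettl3 allele and the Alb-iCre transgene, in which the albumin promoter drives the recombinase in hepatocytes. They were heterozygous for the floxed allele, because homozygous knockout mice did not survive. METTL3-Flox mice (n = 4) had both alleles floxed. Whole liver was sequenced, so the libraries also hold RNA of cells in which the albumin promoter is not active.

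LincRNAs are transcribed like messenger RNAs, and many are spliced and polyadenylated, but they are annotated as noncoding. The label does not exclude that one of them is translated. Some shape nuclear bodies or chromatin, some act on the gene beside them, and some are mainly the precursors of microRNAs or small nucleolar RNAs. METTL3 is the catalytic subunit of the complex that writes N6-methyladenosine (m6A) on RNA. LincRNAs such as Malat1 and Norad are known carriers of this mark.

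Mettl3 itself was checked first. METTL3-HKD livers 1 to 4 read 1.56, 1.39, 1.17 and 1.20 FPKM, and METTL3-Flox livers 1 to 4 read 1.84, 1.16, 1.45 and 1.54 FPKM. The groups overlapped, and the log2 fold change was −0.16 ± 0.17 (SE) with an adjusted p of 0.556 in limma. A value for the whole gene does not single out the floxed exon, and reads of cells without Cre count in it. The hepatocyte markers were present in every liver. Over 7 genes they summed to 22706, 24321, 31186 and 33223 FPKM in METTL3-HKD livers 1 to 4. In METTL3-Flox livers the sum was 29680 to 34023 FPKM, so METTL3-HKD livers 1 and 2 lay below all of these. None of the 7 genes was called.

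Libraries held 15861245 to 18434488 reads on genes. The members together took 0.124% to 0.174% of these reads in METTL3-HKD livers and 0.101% to 0.127% in METTL3-Flox livers. Their summed FPKM overlapped between the groups, at 655 to 782 in METTL3-HKD and 621 to 813 in METTL3-Flox livers. Without the single member Gm26917, described below, the sums were 566 to 718 and 598 to 800 FPKM. The read shares therefore do not show a higher level of the members as a class. In each liver the median member was read by only 23 to 28 reads, so counting error is large for most of them. Skeletal muscle markers (Acta1, Myh4, Ckm, Tnnt3) reached a sum of 53.6 and of 93.1 FPKM in livers 1 and 3 of METTL3-HKD, and of at most 0.0428 FPKM elsewhere. Of the 8 neutrophil markers, 7 were called higher in METTL3-HKD livers, S100a8 at 99.6 to 519 against 3.32 to 16.9 FPKM among them. The sum of all 8 overlapped between the groups, at 941 to 2471 against 645 to 2338 FPKM, and most of it in METTL3-Flox livers was Lcn2, which was not called. The sum without Lcn2, taken after these values were seen, was 330 to 1614 FPKM in METTL3-HKD and 12.8 to 44.2 FPKM in METTL3-Flox livers. Monocyte markers summed to 24.8 to 94.6 FPKM in METTL3-HKD and to 1.93 to 5.63 FPKM in METTL3-Flox livers, cholangiocyte markers to 119 to 369 against 52.5 to 77.6 FPKM, and Kupffer cell markers to 62.6 to 139.7 against 140.4 to 347 FPKM. By group means, most of the cholangiocyte sum was Spp1, at 207.6 against 60.3 FPKM, and most of the monocyte sum was Chil3, at 37.2 against 1.93 FPKM. Epcam of the cholangiocyte markers and Ly6c2 of the monocyte markers were not called. Of the 6 Kupffer cell markers, 3 were called lower. The part of these cell types and of hepatocytes in the results below was not tested.

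Several members are best read together with their sequence. Among the 199 members, 9 held at least 1 RefSeq microRNA hairpin on their own strand, 14 hairpins in all. Mature microRNAs of the called hosts, of Mir17hg and of H19 are shown, for Mir17hg and H19 only 1 per hairpin. The seed (bases 2 to 8) is in capitals, because the seed is what a microRNA pairs with on its targets. The deposited values measure the host RNA and not the mature microRNA. All coordinates are those of GRCm38.
Mir142hg lies at chr11:87755577-87757270 on the plus strand and holds the hairpin of miR-142, a microRNA of blood cells.
mmu-miR-142a-5p: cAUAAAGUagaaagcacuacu
mmu-miR-142a-3p: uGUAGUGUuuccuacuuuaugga
E130102H24Rik lies at chr4:101346531-101356735 on the minus strand and holds the hairpin of miR-101a.
mmu-miR-101a-3p: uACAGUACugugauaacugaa
mmu-miR-101a-5p: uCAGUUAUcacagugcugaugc
Mir17hg lies at chr14:115042879-115046727 on the plus strand and is the host of the growth-associated cluster that starts with miR-17. It holds 6 hairpins, and 2 seeds occur in pairs, 1 shared by miR-17-5p and miR-20a-5p and 1 shared by miR-19a-3p and miR-19b-3p.
mmu-miR-17-5p: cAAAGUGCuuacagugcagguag
mmu-miR-20a-5p: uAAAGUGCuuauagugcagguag
mmu-miR-18a-5p: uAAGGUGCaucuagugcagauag
mmu-miR-19a-3p: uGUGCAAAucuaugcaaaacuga
mmu-miR-19b-3p: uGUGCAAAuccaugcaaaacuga
mmu-miR-92a-3p: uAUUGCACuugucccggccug
H19, an imprinted RNA of fetal liver and muscle, lies at chr7:142575529-142578143 on the minus strand and holds miR-675.
mmu-miR-675-5p: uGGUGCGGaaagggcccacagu

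Over the whole set, 12 members were called higher and 12 were called lower in METTL3-HKD livers. A gene was called at an adjusted p under 0.05 in limma, together with a log2 fold change of 1 or more, or of −1 or less, on log2(FPKM + 0.1). Folds of low genes are understated on this scale. The counts depended on single livers, with 7 higher and 5 lower without METTL3-HKD liver 1, and 6, 5 and 4 lower without METTL3-HKD liver 2, METTL3-Flox liver 2 and METTL3-Flox liver 3. With a pseudocount of 1 FPKM in place of 0.1 FPKM, 6 were higher and 2 lower. The counts over all genes tested, 782 higher and 253 lower, moved in these fits too. They were 492 and 121 without METTL3-HKD liver 1, and 317 and 88 with that pseudocount. Without METTL3-HKD liver 2, METTL3-Flox liver 2 and METTL3-Flox liver 3, 195, 155 and 94 of all genes were lower. Each direction made up 6.03% of the members, and among all 16645 genes tested 4.7% were called higher and 1.52% lower. At the adjusted p alone, 15 members (7.54%) were higher and 25 (12.6%) were lower, beside 9.05% and 6.63% of all genes. Every METTL3-HKD liver was above every METTL3-Flox liver for 14 members (7.04%) and below for 27 (13.6%), beside 12.7% and 9.95% of all genes. The median log2 fold change was −0.18 over the members and −0.00 over all genes tested, and 127 members had a negative value against 72 with a positive one.

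The deposited values had been scaled between libraries by the authors. With each library scaled to its own reads on genes, 18 members were called higher and 6 lower, and the member median became 0.02. Over all genes tested, 1043 were then called higher and 133 lower, beside 782 and 253 with the deposited scaling. The median of all genes moved to 0.20 under that scaling. It multiplies all genes of a library by the same factor, so the distance of the members from that median could hardly change. Membership was not independent of the groups for all members. The mean passed 0.5 FPKM in both groups for 160 members, of which 3 (1.88%) were called higher and 9 (5.62%) lower. Another 18 members passed through METTL3-HKD livers only and 21 through METTL3-Flox livers only, and such members had to differ between the groups. Just inside the limit stood Gm26608 at 0.507, Gm17281 at 0.504 and A530017D24Rik at 0.501 FPKM, and just outside stood 4833445I07Rik at 0.495, Gm47789 at 0.493 and Gm21781 at 0.490 FPKM. Of the 344 tested lincRNAs below the limit, 18 (5.23%) were called higher and 8 (2.33%) lower. Of all genes tested, 4.7% were called higher and 1.52% lower.

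**Figure D1:**
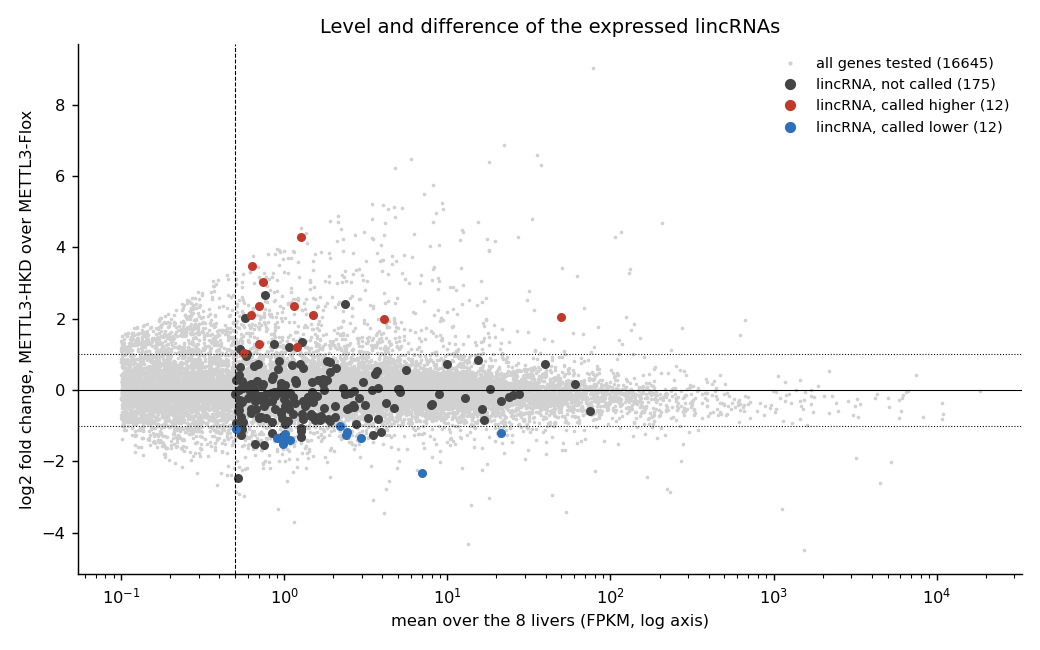
Mean level over the 8 livers (FPKM, log axis) against the log2 fold change of METTL3-HKD over METTL3-Flox, with all 16645 genes tested in grey and the 199 lincRNAs as large points, in red where called higher and in blue where called lower. The dashed line marks 0.5 FPKM and the dotted lines a log2 fold change of 1 and −1. Most lincRNAs sit at the left end of the range, and the 12 red points reach 4.28 while the 12 blue points reach −2.33.

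The members were mostly weakly expressed. Their median level was 1.14 FPKM, and 144 of them (72.4%) stayed under 2 FPKM. Protein-coding genes tested had a median of 3.29 FPKM. The exons of a member covered 1258 bases at the median, against 4168 bases for these protein-coding genes. Calls occurred at all levels. Of the 85 members under 1 FPKM, 6 were called higher and 4 lower, and of the 14 members at 10 FPKM or more, 1 was called higher (Gm26917) and 1 lower (Gm48633). Within a group the median coefficient of variation was 34.9% in METTL3-HKD and 33.3% in METTL3-Flox livers.

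The 12 members called higher ranged in log2 fold change from 1.03 to 4.28. They were Gm47117, Gm10440, 4833407H14Rik, Gm30692, Gm19951, Mir142hg, Gm39929, Gm26917, Gm26809, Gm19619, Gm36251 and B230208H11Rik. For 10 of them the groups did not overlap, and for 9 the METTL3-Flox mean was under 0.5 FPKM. Those 9 passed the rule only through METTL3-HKD livers. METTL3-HKD liver 3 gave the lowest of the 4 METTL3-HKD values for 7 of the 12. It was also the METTL3-HKD liver with the lowest sum of monocyte markers, at 24.8 FPKM, little below METTL3-HKD liver 4 at 26.5 FPKM. Its sum of neutrophil markers without Lcn2 was the lowest too, at 330 FPKM beside 379 FPKM in METTL3-HKD liver 2. With Lcn2 included, the lowest neutrophil sum was that of METTL3-HKD liver 2, at 941 FPKM, and liver 3 stood at 1126 FPKM. The part of these cells in the low values of liver 3 was not tested.

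Gm26809 (ENSMUSG00000097815), at chr6:18844220-18847360 on the plus strand, had the smallest adjusted p among them. Its values were 8.71, 5.97, 5.89 and 5.60 FPKM in METTL3-HKD livers and 0.826, 1.81, 1.61 and 2.29 FPKM in METTL3-Flox livers. All METTL3-HKD livers were above all METTL3-Flox livers, with means of 6.54 ± 1.45 and 1.63 ± 0.610 FPKM (SD, n = 4) and a log2 fold change of 1.99 ± 0.28 (SE, limma adjusted p = 0.00473). Gm20186, a lincRNA on the opposite strand that averaged 0.278 and 0.199 FPKM, overlaps 28.7% of its exon bases.

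Gm47117 (ENSMUSG00000110729, chr9:122008354-122012140, minus strand) and Gm10440 (ENSMUSG00000105912, chr5:54349991-54358543, plus strand) were read in every METTL3-HKD liver and were at 0 in all METTL3-Flox livers. In METTL3-HKD livers 1 to 4, Gm47117 stood at 2.65, 3.56, 0.273 and 3.69 FPKM, which came from 11 to 153 reads. Gm10440 stood at 1.26, 1.59, 0.221 and 1.97 FPKM, from at least 11 reads each. Liver 3 was far below the other METTL3-HKD livers for both RNAs. Set against 3 reads in each METTL3-Flox library, Gm47117 was at least 29.1-fold higher and Gm10440 at least 17.8-fold higher in METTL3-HKD (limma adjusted p = 0.00725 and 0.00679). With both genes at these bounds, the median of the members stayed at −0.18.

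4833407H14Rik (ENSMUSG00000097779, chr19:53460631-53462723, plus strand) was read at 2.88, 0.401, 0.895 and 1.49 FPKM in METTL3-HKD livers and at 0, 0.0417, 0.0443 and 0.167 FPKM in METTL3-Flox livers. The groups did not overlap, although the METTL3-Flox values rest on at most 4 reads each. In log2 terms the difference was 3.02 ± 0.53 (SE, limma adjusted p = 0.0104), and without METTL3-HKD livers 1 and 3 the adjusted p was 0.0572. The lincRNA Mirt1 covers 67.5% of its exon bases on the opposite strand. The strand setting of the counting is not given in the sources used here, so reads of the pair cannot be told apart.

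Gm26917 (ENSMUSG00000097971, chr17:39843013-39846341, plus strand) was the third most abundant member. Its values were 89.7, 139.8, 33.4 and 62.3 FPKM in METTL3-HKD livers and 14.8, 12.9, 19.5 and 23.2 FPKM in METTL3-Flox livers. Even METTL3-HKD liver 3 was above all METTL3-Flox livers, and the log2 fold change was 2.05 ± 0.39 (SE, limma adjusted p = 0.013). The gene ends 12 bases before Rn18s-rs5, a pseudogene in RefSeq that is related to the 18S ribosomal RNA. The mitochondrial ribosomal RNAs mt-Rnr1 and mt-Rnr2 were also higher in METTL3-HKD livers, with log2 fold changes of 1.55 ± 0.43 and 1.97 ± 0.37 (SE, limma adjusted p = 0.0414 and 0.0115). For these too, livers 1 and 2 were the highest, and the part of ribosomal RNA in the libraries in this result was not tested.

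Another 3 members that were called higher without overlap showed folds of 2.48 to 7.44 in mean FPKM. Gm30692 (ENSMUSG00000109141) averaged 2.01 ± 1.02 FPKM in METTL3-HKD and 0.302 ± 0.164 FPKM in METTL3-Flox livers (SD, n = 4), a log2 fold change of 2.36 ± 0.38 (SE, limma adjusted p = 0.00792). Gm36251 (ENSMUSG00000110996) averaged 1.71 ± 0.422 against 0.691 ± 0.232 FPKM (SD, n = 4), with a log2 fold change of 1.22 ± 0.25 (SE, limma adjusted p = 0.0162, or 0.0788 without METTL3-HKD livers 1 and 3). Gm19951 (ENSMUSG00000113136) averaged 1.22 ± 0.748 against 0.165 ± 0.144 FPKM (SD, n = 4), with a log2 fold change of 2.35 ± 0.53 (SE, limma adjusted p = 0.0219). The call of Gm19951 was lost without METTL3-HKD liver 1 (adjusted p = 0.0578), METTL3-HKD liver 4 (0.0508) or METTL3-Flox liver 2 (0.0552).

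The 12 members called lower ranged in log2 fold change from −1.0 to −2.33. They were C730036E19Rik, Gm46516, Gm13203, AC154378.1, Gm47467, Gm40040, Gm12354, Gm40770, Gm48633, Gm5524, Gm26608 and E130102H24Rik. Their mean in METTL3-HKD livers was under 0.5 FPKM for 3 of them, while a lower RNA could only become a member with a METTL3-Flox mean above that level. METTL3-HKD liver 1 gave the lowest METTL3-HKD value for 9 of the 12, and liver 3 gave the highest for 8.

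**Figure D2:**
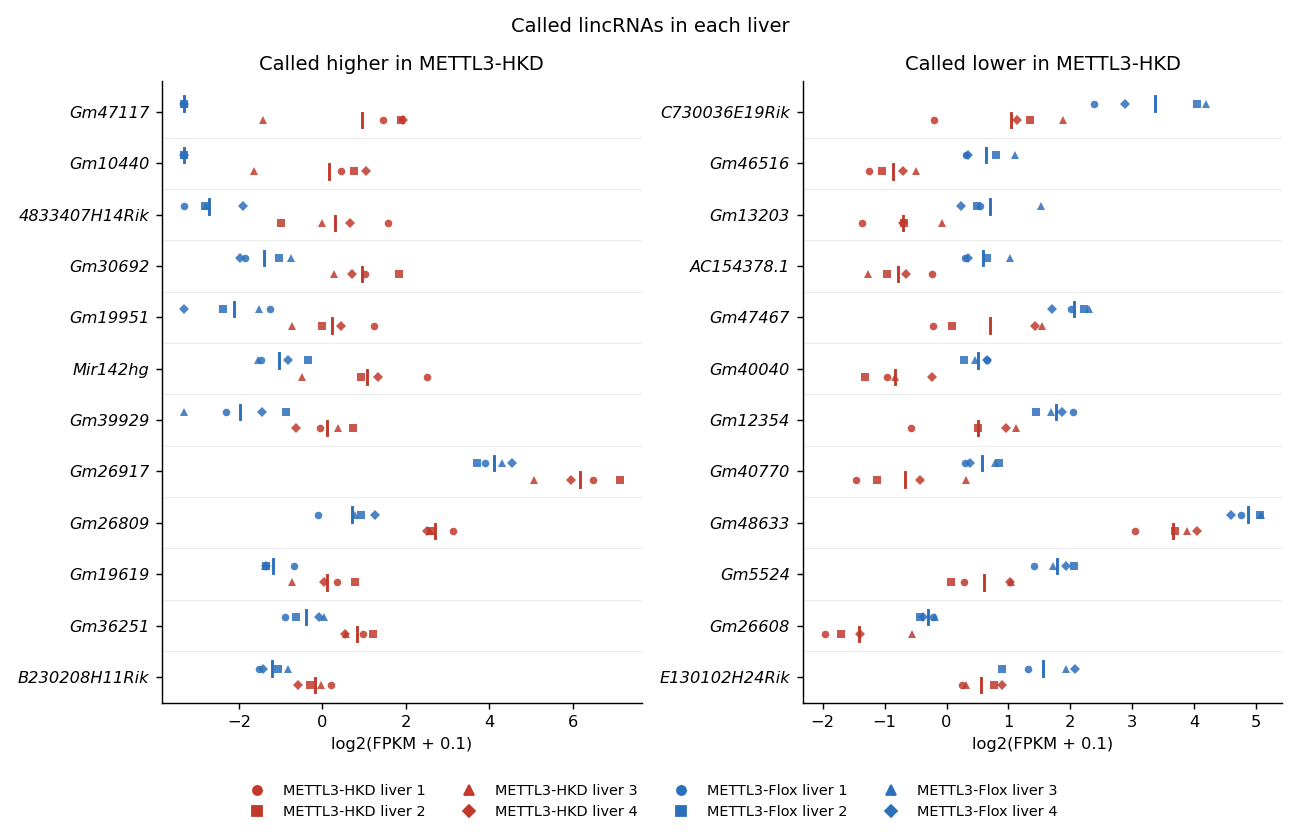
Level of each called lincRNA in each liver as log2(FPKM + 0.1), with the 12 called higher at left and the 12 called lower at right, METTL3-HKD in red and METTL3-Flox in blue. Symbols stand for livers 1 to 4 and vertical bars for the group mean of the plotted values. The colours are apart for 10 RNAs in each panel and overlap for Mir142hg, Gm19619, Gm40770 and E130102H24Rik.

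Gm48633 (ENSMUSG00000112006), at chr12:7911889-7950061 on the minus strand, was the most abundant of the members called lower. It stood at 8.12, 12.8, 14.7 and 16.3 FPKM in METTL3-HKD livers and at 27.0, 33.5, 33.6 and 24.0 FPKM in METTL3-Flox livers. No METTL3-HKD liver reached the lowest METTL3-Flox liver, and the values rest on 143 to 474 reads each (log2 fold change −1.21 ± 0.21 (SE), limma adjusted p = 0.0104).

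C730036E19Rik (ENSMUSG00000102095), at chr1:151138034-151142345 on the plus strand, had the largest fold among the members called lower. It was read at 0.767, 2.46, 3.57 and 2.10 FPKM in METTL3-HKD livers and at 5.11, 16.3, 18.1 and 7.27 FPKM in METTL3-Flox livers. The METTL3-Flox livers differed widely among themselves but stayed above all METTL3-HKD livers, with a log2 fold change of −2.33 ± 0.52 (SE, limma adjusted p = 0.0203). Without METTL3-Flox liver 2 or 3 the adjusted p was 0.0541 or 0.0592.

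Gm46516 (ENSMUSG00000115200, chr15:55923402-55960906, plus strand) had the smallest adjusted p of the members called lower. It stood at 0.322, 0.384, 0.614 and 0.514 FPKM in METTL3-HKD livers and at 1.15, 1.64, 2.05 and 1.17 FPKM in METTL3-Flox livers. The groups were apart, and the log2 fold change was −1.51 ± 0.24 (SE, limma adjusted p = 0.00755). AC154378.1 (ENSMUSG00000116718) averaged 0.504 ± 0.190 FPKM in METTL3-HKD and 1.43 ± 0.368 FPKM in METTL3-Flox livers (SD, n = 4; log2 fold change −1.36 ± 0.26 (SE), limma adjusted p = 0.0125). It overlaps the span of Fam120b on the opposite strand and shares 8.72% of its exon bases with it. Gm40040 (ENSMUSG00000105260) averaged 0.481 ± 0.190 against 1.33 ± 0.168 FPKM (SD, n = 4), with a log2 fold change of −1.35 ± 0.23 (SE, limma adjusted p = 0.00973, or 0.0632 without METTL3-HKD livers 1 and 3).

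Calls of the other members with separate groups depended on single livers. Gm5524 averaged 1.49 ± 0.534 FPKM in METTL3-HKD and 3.38 ± 0.650 FPKM in METTL3-Flox livers (SD, n = 4; limma adjusted p = 0.0187), and the adjusted p was 0.0504 to 0.0519 without METTL3-HKD liver 1 or METTL3-Flox liver 2, 3 or 4. Without METTL3-HKD liver 2 its log2 fold change was just short of −1. Gm13203 averaged 0.544 ± 0.232 against 1.63 ± 0.778 FPKM (SD, n = 4; limma adjusted p = 0.0272). Its adjusted p was 0.0533 to 0.0652 without METTL3-HKD liver 1, 2 or 4 or METTL3-Flox liver 2 or 3. Gm26608 averaged 0.304 ± 0.188 against 0.710 ± 0.0648 FPKM (SD, n = 4; limma adjusted p = 0.0384) and lost its call without any liver but METTL3-HKD liver 3, at an adjusted p of 0.0708 to 0.0969.

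Over all 24 called members, 8 kept an adjusted p under 0.05 in all 17 alternative fits, and 5 of these also kept the fold that a call needs. These were Gm26809, Gm10440, Gm47117, Gm30692 and Gm26917 among those called higher, which kept both, and Gm46516, AC154378.1 and Gm48633 among those called lower. The fold of these last 3 fell short in 1 fit each, Gm46516 and AC154378.1 at −0.77 and −0.69 with a pseudocount of 1 FPKM, and Gm48633 at −0.996 with libraries scaled to reads on genes. Gm10440, Gm47117 and Gm30692 passed the 0.5 FPKM rule only through METTL3-HKD livers, and Gm46516 only through METTL3-Flox livers. Such members had to differ between the groups, so their stable calls are no separate support. The exact permutation test of mean FPKM over 70 arrangements gave p = 0.0286 for all 8. This is the smallest value it can give for 4 against 4 livers, and any member with separate groups reaches it. It was reached by 41 members in all, so this test adds no separate evidence for these 8.

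Among the hosts of microRNAs, Mir142hg was called higher and E130102H24Rik was called lower. Mir142hg (ENSMUSG00000084796), the host of miR-142, was at 5.54, 1.81, 0.617 and 2.40 FPKM in METTL3-HKD livers and at 0.262, 0.690, 0.245 and 0.462 FPKM in METTL3-Flox livers. METTL3-HKD liver 3 lay below METTL3-Flox liver 2, so the groups overlapped, and the values rest on 1 to 30 reads. The log2 fold change was 2.11 ± 0.56 (SE, limma adjusted p = 0.0373), and the exact permutation test gave p = 0.0571. With METTL3-HKD liver 3 left out the call held, while leaving out any other liver gave an adjusted p of 0.0521 to 0.097. The monocyte markers were highest in METTL3-HKD liver 1, at 94.6 FPKM, as Mir142hg was, and 3 of the 4 (Ccr2, Chil3, F13a1) were called higher. The neutrophil markers without Lcn2 were highest there too, at 1614 FPKM, and all 7 were called higher. With Lcn2, which was not called, their sum there was 2471 FPKM, beside 2338 FPKM in METTL3-Flox liver 1. The part of either cell type in the level of Mir142hg was not tested. A higher share of such cells and more RNA per cell cannot be told apart in whole liver.

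E130102H24Rik (ENSMUSG00000086782), which holds miR-101a and was singled out after its values were seen, was at 1.08, 1.59, 1.15 and 1.76 FPKM in METTL3-HKD livers and at 2.38, 1.75, 3.73 and 4.13 FPKM in METTL3-Flox livers. METTL3-HKD liver 4 lay just above METTL3-Flox liver 2. The log2 fold change was −1.0 ± 0.28 (SE, limma adjusted p = 0.0423, exact permutation p = 0.0571). The call was lost in 14 of 17 alternative fits, in 13 by the adjusted p and in 1, with a pseudocount of 1 FPKM, by the fold alone. It was lost with METTL3-HKD liver 1 left out at an adjusted p of 0.109 and with METTL3-Flox liver 3 left out at 0.109 too.

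Mir17hg (ENSMUSG00000089726) was at 1.01, 0.750, 0.548 and 0.822 FPKM in METTL3-HKD and at 0.637, 0.350, 0.242 and 0.264 FPKM in METTL3-Flox livers. METTL3-Flox liver 1 lay within the range of the METTL3-HKD livers, and the log2 fold change of 0.94 ± 0.28 (SE) missed the threshold (limma adjusted p = 0.054, or 0.0213 without METTL3-Flox liver 1). H19 was at 2.30, 0.0880, 3.08 and 0.394 FPKM in METTL3-HKD and at 0, 0.201, 0 and 0.0505 FPKM in METTL3-Flox livers. METTL3-HKD livers 1 and 3 stood apart from all other livers, and these are the livers in which the skeletal muscle markers were above 1 FPKM. Its log2 fold change was 2.65 ± 0.87 (SE, limma adjusted p = 0.0685, exact permutation p = 0.0571), and the part of muscle RNA in it was not tested. The other hosts were Gm27028 (miR-30c-2), 6720427I07Rik (let-7d), AL805899.1 (miR-31), 2900076A07Rik (miR-1839) and Snhg20 (miR-6516), with log2 fold changes of −0.50, −0.05, 0.65, −0.17 and −0.00, none of them called.

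**Figure D3:**
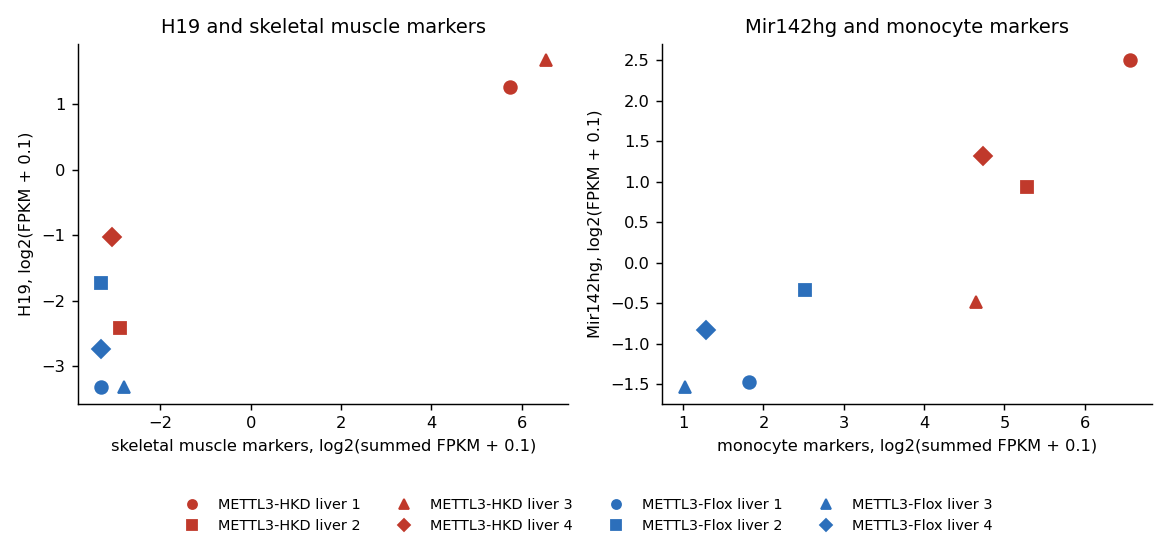
Level of H19 against the summed skeletal muscle markers (left) and of Mir142hg against the summed monocyte markers (right), all as log2(FPKM + 0.1), with METTL3-HKD livers in red, METTL3-Flox livers in blue and symbols for livers 1 to 4. At left only METTL3-HKD livers 1 and 3, at 53.6 and 93.1 FPKM of muscle markers, are far from the rest, and at right all METTL3-HKD livers lie to the right of all METTL3-Flox livers.

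Hosts of small nucleolar RNAs release these guides of ribosomal RNA modification from their introns. From the list of 44 well-known long noncoding RNAs, 11 were members, and 4 of these belong to this class. Snhg6 was at 22.9, 26.3, 12.9 and 17.9 FPKM in METTL3-HKD and at 11.7, 10.04, 10.8 and 10.5 FPKM in METTL3-Flox livers. The METTL3-Flox livers were close together, and all METTL3-HKD livers were above them, with a log2 fold change of 0.84 ± 0.20 (SE, limma adjusted p = 0.0251). Snhg12 averaged 2.48 ± 0.983 against 1.31 ± 0.154 FPKM (SD, n = 4), also without overlap (log2 fold change 0.80 ± 0.24 (SE), limma adjusted p = 0.0567). Snhg18 averaged 1.28 ± 0.172 against 1.52 ± 0.419 FPKM and Snhg20 0.941 ± 0.178 against 0.949 ± 0.217 FPKM (SD, n = 4), with adjusted p of 0.499 and 0.994 in limma.

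The nuclear lincRNAs did not pass the test. Malat1, which resides in nuclear speckles, was at 13.6, 12.97, 10.4 and 9.61 FPKM in METTL3-HKD and at 7.38, 17.2, 16.5 and 15.2 FPKM in METTL3-Flox livers. METTL3-Flox liver 1 was the lowest of all 8 livers while the other METTL3-Flox livers were the highest, and the log2 fold change was −0.22 ± 0.26 (SE, limma adjusted p = 0.611). Without METTL3-Flox liver 1 it was −0.50, at an adjusted p of 0.0486. Neat1, the scaffold of paraspeckles, averaged 3.34 ± 1.43 against 2.71 ± 0.479 FPKM (SD, n = 4; limma adjusted p = 0.636).

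Norad, listed as 2900097C17Rik and known to sequester Pumilio proteins in the cytoplasm, was the steadiest of these RNAs. It was at 19.9, 19.6, 16.8 and 17.1 FPKM in METTL3-HKD and at 16.9, 17, 19.5 and 18.2 FPKM in METTL3-Flox livers. The log2 fold change was 0.04 ± 0.09 (SE, limma adjusted p = 0.83). Bvht, a lincRNA of heart development, averaged 1.02 ± 0.270 against 0.884 ± 0.230 FPKM (SD, n = 4; limma adjusted p = 0.597). Over all 11 listed members, 1 was called higher (Mir142hg) and none lower, 2 were higher at an adjusted p under 0.05 and none lower, and the median log2 fold change was 0.21. Of the other names on the list, 12 were lincRNAs below 0.5 FPKM, 18 had another biotype and 3 were not found by symbol.

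The most abundant member was AW112010, an RNA known from immune cells that is induced by interferon. It was at 52.1, 69.4, 67.9 and 48.8 FPKM in METTL3-HKD and at 95.3, 64.5, 114 and 89.4 FPKM in METTL3-Flox livers. The groups overlapped through METTL3-Flox liver 2 alone, and the log2 fold change was −0.60 ± 0.19 (SE, limma adjusted p = 0.063, or 0.032 without that liver). Gm10076 ranked second, and its level differed widely within groups, from 17.7 to 103 FPKM in METTL3-HKD and from 28.1 to 124 FPKM in METTL3-Flox livers. Of its 50-base stretches, 69.9% occur in transcripts of other genes, most of all Rpl41, so its reads are uncertain.

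The remaining members among the most abundant ones did not pass the test. Gm15611 averaged 49.0 ± 23.8 against 30.6 ± 15.7 FPKM, Gm8883 26.2 ± 7.55 against 28.9 ± 10.2 FPKM and 1810058I24Rik 23.9 ± 4.84 against 26.3 ± 7.03 FPKM (SD, n = 4). Gm27216 averaged 22.2 ± 3.84 against 25.6 ± 4.85 FPKM and Tmem250-ps 18.9 ± 2.84 against 23.6 ± 3.29 FPKM (SD, n = 4). The groups overlapped for each of these 5 RNAs, and the limma adjusted p lay between 0.157 for Tmem250-ps and 0.797 for Gm8883.

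**Figure D4:**
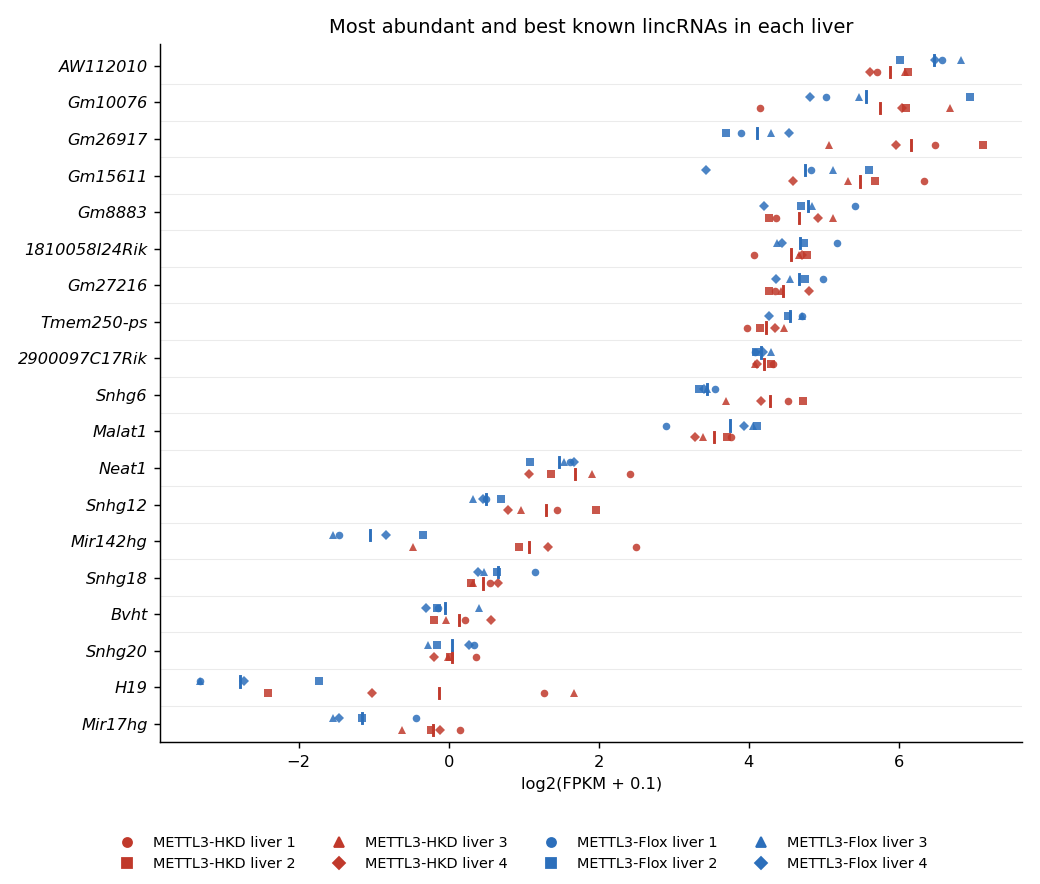
Level in each liver, as log2(FPKM + 0.1), of the 8 most abundant lincRNAs and of the 11 members from the list of well-known long noncoding RNAs, ordered by mean level, with METTL3-HKD in red, METTL3-Flox in blue, symbols for livers 1 to 4 and bars for group means of the plotted values. Norad (2900097C17Rik) shows the tightest points, Gm26917, Snhg6 and Snhg12 show separate groups, and H19 shows METTL3-HKD livers 1 and 3 far to the right.

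The 175 members that were not called lay between −2.45 and 2.65 in log2 fold change, and 94 of them lay within 0.5 of 0. Of these 175, 3 were higher and 13 lower at an adjusted p under 0.05 with a smaller fold. The 3 higher ones were Snhg6, Gm6712 and Gm39469. The lower ones included, chosen after their values were seen, 9030622O22Rik at 1.85 ± 0.201 against 3.67 ± 0.770 FPKM (SD, n = 4; limma adjusted p = 0.00914) and C730027H18Rik at 0.715 ± 0.167 against 1.35 ± 0.109 FPKM (SD, n = 4; limma adjusted p = 0.015). Another 8 had a log2 fold change of at least 1 and 12 of at most −1 without passing the test.

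Position on the chromosome was then examined, because a lincRNA can be transcribed together with the gene beside it. The nearest protein-coding gene lay 11054 bases away at the median, 20 of the 199 members overlapped it, and 83 overlapped it or lay within 5000 bases of it. Of the 12 members called higher, 9 had a nearest protein-coding gene that was expressed enough to be tested, and 3 of these genes were called higher too. For the 12 members called lower, 9 neighbours were tested and none was called. Among members that were not called, 6 of 148 tested neighbours were called higher and 2 lower. Of all protein-coding genes tested, 5.15% were called higher and 1.22% lower. The neighbour had the sign of the member in 8 of 9 pairs for the members called higher and in 8 of 9 pairs for those called lower, with median log2 fold changes of the neighbours of 0.38 and −0.14. For members that were not called, the signs were the same in 88 of 148 pairs. Signs were counted at any size, also for neighbours near 0 such as Pdcd6ip at 0.06 and Fam120b at −0.09.

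The 3 pairs were 4833407H14Rik with Dusp5, B230208H11Rik with Stx11, and Gm19619 with Btc, with gaps of 66385, 15118 and 73839 bases. Of the members called higher, only Gm26809, Gm39929 and Mir142hg lay within 5000 bases of their neighbour. These neighbours were Lsm8 and Anapc1, which were not called, and Tspoap1, which was not tested. Dusp5, a phosphatase of nuclear ERK, begins 68478 bases from the start of 4833407H14Rik on the same strand. It was at 25.4, 22.5, 5.17 and 10.3 FPKM in METTL3-HKD and at 0.285, 0.350, 0.718 and 0.377 FPKM in METTL3-Flox livers. The order of the METTL3-HKD livers was not the same for both, since liver 2 was the lowest for 4833407H14Rik and the second highest for Dusp5. Dusp5 had a log2 fold change of 4.71 ± 0.48 (SE, limma adjusted p = 0.0019).

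Stx11, a syntaxin of immune cells, was at 6.83, 1.16, 1.01 and 2.35 FPKM in METTL3-HKD and between 0.265 and 0.438 FPKM in METTL3-Flox livers (log2 fold change 2.34 ± 0.52 (SE), limma adjusted p = 0.0202). B230208H11Rik (ENSMUSG00000097378), 15118 bases away, was at 1.04, 0.710, 0.872 and 0.565 FPKM in METTL3-HKD and at 0.246, 0.379, 0.460 and 0.272 FPKM in METTL3-Flox livers. Both were highest in METTL3-HKD liver 1. The log2 fold change of B230208H11Rik was 1.03 ± 0.24 (SE, limma adjusted p = 0.0248), and its call was lost without METTL3-HKD liver 1 (0.0688) or 2 (0.0523) or METTL3-Flox liver 4 (0.0619). Without METTL3-HKD liver 3 or METTL3-Flox liver 1 it was lost by the fold alone, at 0.98 and 0.92 on the log2 scale.

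Btc encodes betacellulin, a ligand of the EGF receptor, and averaged 1.32 ± 0.184 against 0.483 ± 0.119 FPKM (SD, n = 4; limma adjusted p = 0.00565). Gm19619 (ENSMUSG00000107198), 73839 bases away, was at 1.16, 1.62, 0.502 and 0.924 FPKM in METTL3-HKD and at 0.528, 0.290, 0.288 and 0.291 FPKM in METTL3-Flox livers. Here METTL3-HKD liver 3 lay below METTL3-Flox liver 1. The call of Gm19619 (limma adjusted p = 0.0314) was lost without METTL3-HKD liver 1, 2 or 4 or METTL3-Flox liver 2, 3 or 4, at an adjusted p of 0.0606 to 0.0845.

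**Figure D5:**
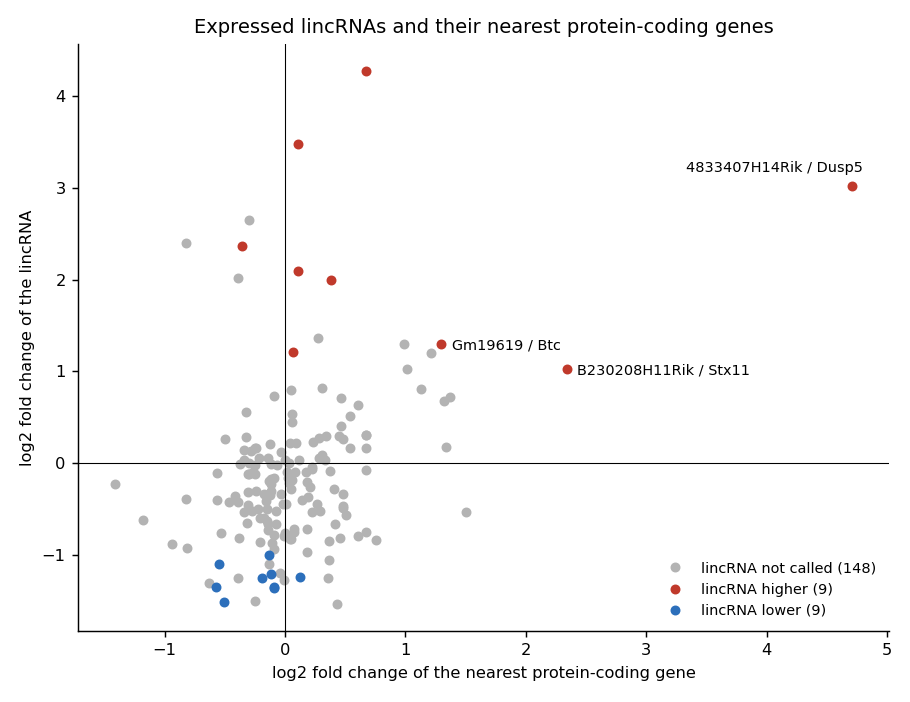
Log2 fold change of the nearest protein-coding gene (horizontal) against that of the lincRNA (vertical) for the 166 members whose neighbour was tested, in red where the lincRNA was called higher, in blue where it was called lower and in grey otherwise. The 3 labelled pairs, in which both genes were called, lie at the upper right, and the blue points lie close to 0 on the horizontal axis.

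Of the neighbours of members called lower, Insig1 and Apob are described here because their roles in the liver are well known, and neither passed the test. Gm26608 starts 258 bases from Insig1, an inhibitor of cholesterol synthesis, on the opposite strand. Insig1 averaged 70.5 ± 21.9 FPKM in METTL3-HKD and 100.99 ± 14.9 FPKM in METTL3-Flox livers (SD, n = 4; log2 fold change −0.55 ± 0.20 (SE), limma adjusted p = 0.0892), while Gm26608 itself had a log2 fold change of −1.10 ± 0.30 (SE). Gm48633 lies 27586 bases from Apob, the protein of very low density lipoprotein. Apob averaged 471 ± 46.2 against 519.7 ± 111 FPKM (SD, n = 4; log2 fold change −0.12 ± 0.18 (SE), limma adjusted p = 0.691).

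Members also lay beside each other. In 10 places, members lay within 100000 bases of the next one, 25 members in all. Near Zfp825, E430024I08Rik, Gm47467, Gm47469 and Gm46430 lie on the minus strand within chr13:74434781-74617945, and their log2 fold changes were −0.16, −1.35, −0.78 and −0.30. Only Gm47467 was called, and 65.6% of its 50-base stretches occur in transcripts of other genes, most of all Gm46430. At chr8:10858750-10928696, a run of 5 members on the minus strand gave values from −0.75 to 0.31 with no call. C730027H18Rik and AC079680.1 on chromosome 10 had −0.85 and −1.06, but they overlap on the same strand and share 669 exon bases, so their reads cannot be told apart there. In 6 of the 10 places all members had the same sign, and in 4 of the 8 places where members share no exon bases.

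Promoters were read where RefSeq places the start of a called member within 100 bases of the listed one, which held for 60 of the 199 members and for 6 of those called. The windows of the 2 members called higher whose neighbour was called higher in turn are printed, 250 bases before to 50 after the RefSeq start (GRCm38.p6). Capitals mark the letters CCAAT on either strand, a common promoter element.
4833407H14Rik, chr19:53460372-53460671, plus strand: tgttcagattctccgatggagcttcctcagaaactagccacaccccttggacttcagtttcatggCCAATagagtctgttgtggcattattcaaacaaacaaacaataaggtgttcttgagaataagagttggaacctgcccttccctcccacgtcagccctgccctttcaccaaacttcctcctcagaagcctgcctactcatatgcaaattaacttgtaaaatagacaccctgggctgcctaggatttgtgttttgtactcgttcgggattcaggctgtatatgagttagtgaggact
B230208H11Rik, chr10:12923078-12923377, minus strand: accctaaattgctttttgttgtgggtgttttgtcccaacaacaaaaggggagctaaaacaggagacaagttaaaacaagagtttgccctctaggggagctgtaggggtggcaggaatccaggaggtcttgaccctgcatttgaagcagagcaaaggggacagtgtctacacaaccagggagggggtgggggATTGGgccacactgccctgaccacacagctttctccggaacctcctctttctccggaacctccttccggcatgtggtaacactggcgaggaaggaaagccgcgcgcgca
The letters lie 185 bases before the start in the first window and 59 bases before it, on the other strand, in the second. CCAAT stood in 3 of 4 windows of members called higher, in 0 of 2 of members called lower, in 23 of all 60 windows (38.3%) and in 37.9% of all 27025 promoters of the table. The letters TGANTCA of AP-1 stood in 0 of these 6 windows and in 7.93% of all promoters. The E-box, with the letters CACGTG, stood in 0 of the 6, beside 7.24% of all promoters. The core promoter letters TATAAA also stood in 0 of the 6, beside 14.2%. The gamma-activated site, searched as TTCNNNGAA, stood in 1 (Gm19951), beside 8.47%. A match of letters is a description of the window and no sign of binding.

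METTL3 methylates adenosine within a short sequence of which GGACT is the best known form. In the longest GENCODE transcript of each member, GGACT occurred in 9 of the 12 members called higher, 7 of the 12 called lower and 125 of the 175 others. The density was 1.09, 0.919 and 1.07 per kilobase, beside 1.14 in all GENCODE lincRNAs and 1.06 in the longest transcripts of protein-coding genes. No measurement of m6A on these RNAs was analysed here.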

How the data were processed

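Whole livers of 4 METTL3-HKD and 4 METTL3-Flox mice were sequenced with a SMARTer mRNA-Seq kit and grouped by the labels. The authors deposited FPKM per gene with the gene length, already scaled between libraries. The genome builds named in the submitters' processing notes are GRCm38 and mm10. The aligner, annotation and strand setting are not given in the sources used here. All 199 members were found in GENCODE M21, 193 of them with the same coordinates and 123 overlapping no other listed gene. FPKM times gene length gave whole reads (within 0.1) for 100% of the values in every library, which gave depth and the floor of 3 reads. Intervals from reads cover counting error only.

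FPKM were compared as log2(FPKM + 0.1) with limma 3.58.1 (lmFit, eBayes with trend) in R 4.3.3, two-sided, over the 16645 genes that averaged 0.1 FPKM or more, with Benjamini-Hochberg adjustment over all of them. Exact two-sided permutation tests of mean FPKM used scipy 1.17.1. The fit was tested on simulated data. Where nothing says that livers are separate litters or days, p-values measure the spread between these 8 livers.

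The members and lists were chosen with earlier results of these data known. Full values are given for Mettl3, for the 8 members called higher and the 8 called lower with the smallest adjusted p and separate groups, for the 8 most abundant members, for members on a list of well-known long noncoding RNAs, and for their nearest protein-coding genes. RefSeq microRNAs and promoters were matched by position or symbol. Promoters of 100 members were found by symbol. Alternatives changed the pseudocount, the minimum, the trend, the weights, the scaling, the test (voom on rebuilt reads), a replicate block, the overlapping members and each liver in turn.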

Additional observations from a re-analysis of the deposited data

Results flagged for a closer look

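In groups of 4 livers, a value is given here where its distance to the nearest other liver takes up most of the range of the group (beyond Dixon's 95% critical value). Among 82 such groups of the 41 named members, 4 met this, and chance alone gives about 1 in 20.

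Gm26809 was at 8.71 FPKM in METTL3-HKD liver 1, above the other METTL3-HKD livers. Gm13203 was at 2.78 FPKM in METTL3-Flox liver 3. Gm10076 was at 124 FPKM in METTL3-Flox liver 2. Gm19619 was at 0.528 FPKM in METTL3-Flox liver 1, the only METTL3-Flox liver within the range of METTL3-HKD.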

How the results depend on the processing

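By the adjusted p alone, 568 values of the named members under the alternatives kept their side of 0.05, 113 lost it, 16 gained it and none reversed. By the whole call, which also needs the fold, the 24 called members kept it in 278 of 408 values and lost it in 130, of which 22 by the fold alone. The main counts of members were 12 higher and 12 lower, 15 and 25 at the adjusted p alone, and 3 neighbours called in the direction of their lincRNA. Keeping only members that overlap no other gene gave 7 and 7, with 9 higher at the adjusted p alone. A pseudocount of 1 FPKM gave 6 and 2 and 1 neighbour. Without a minimum level the counts were 8 and 7, 9 and 12 at the adjusted p alone, and 1 neighbour. Scaling to reads on genes gave 18 higher and 6 lower, 11 lower at the adjusted p alone, and a member median of 0.02 beside −0.18. Without METTL3-HKD livers 1 and 3, an alternative chosen after seeing the data, 9 were higher and 6 lower, 9 and 9 at the adjusted p alone, with 1 neighbour. Leaving out single livers gave 7 to 14 higher and 4 to 15 lower, 7 to 17 and 7 to 28 at the adjusted p alone, and 1 to 2 neighbours. The fewest higher calls (7) came without METTL3-HKD liver 1, and the fewest lower calls (4) without METTL3-Flox liver 3. Over all genes tested, leaving out single livers gave 492 to 960 higher and 94 to 341 lower, with the fewest in those same fits. In the main fit 782 of all genes were higher and 253 lower. The cause of these changes was not tested.

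With the replicate block, 10 members were higher and 8 lower, and 12 were lower at the adjusted p alone. Same-numbered livers correlated at 0.07, −0.08, −0.01 and −0.03 in their deviations from the group means, and the other pairs at −0.07 to 0.09. These values show no pairing by number, but they cannot exclude a shared litter or day. The paper describes littermates of both genotypes, and the labels do not give which livers share a litter. The median member had 23 to 28 reads in a liver. Calls were made in 6 and 4 of 85 members under 1 FPKM (higher and lower) and in 1 and 1 of 14 at 10 FPKM or more, and what depth took from them was not tested.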
